A study of Mus musculus with 10 samples.

Results

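The genes of cholesterol and fatty acid synthesis were read in cultured mouse cortical neurons that carried or lacked the transcription factor ATF4 and were given arsenite or vehicle. The set had 31 listed genes, 23 of the sterol arm (18 enzymes, and 5 genes of regulation and sterol transport) and 8 of the fatty acid arm. Each gene was read through its brightest probe set that names 1 gene symbol, and 28 of the 31 had one, among 22180 genes measured in all. The 21 sterol genes read were 16 enzymes and 5 regulators or carriers, and 7 fatty acid genes were read. Idi1 and Scd2 sat on probe sets that list 2 symbols and Acat2 had no probe set of its own, so these 3 have no value here. Levels are log2 values after normalisation by robust multiarray average (RMA), so a difference of 1 is a doubling of signal.

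Neurons were taken from the cortex of mouse embryos at day 14.5 to 15.5, grown as dissociated cultures and treated on day 7 in vitro for 12 hours. The 4 groups were wildtype with vehicle (2 arrays), wildtype with 5 µM sodium arsenite (4 arrays), ATF4-deficient with vehicle (2 arrays) and ATF4-deficient with 5 µM sodium arsenite (2 arrays). Sodium arsenite is a poison that activates the integrated stress response, the program that ATF4 carries out at its target genes. Strain, the kind of Atf4 allele, the vehicle and whether embryos were pooled are not given in the sources used here. The samples are called biological replicates with no word on separate embryos, litters or cultures, so p-values measure the spread between these samples.

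Cholesterol is built from acetyl-CoA through mevalonate, squalene and lanosterol. The transcription factors of the SREBP family switch these enzymes on when membrane sterol is low: SCAP escorts SREBP out of the endoplasmic reticulum for cleavage, and the INSIG proteins hold SCAP back when sterol is plentiful. Srebf2 mainly serves the sterol enzymes and Srebf1 mainly the fatty acid enzymes. Brain cholesterol is made locally, and in culture astrocytes make much of it and pass it to neurons.

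Atf4 itself, read first as a check of the labels, was at 9.09 and 9.56 in wildtype vehicle, at 9.43, 9.80, 9.64 and 9.91 in wildtype arsenite, at 7.65 and 7.48 on the ATF4-deficient vehicle arrays and at 7.54 and 7.70 on their arsenite counterparts. The ATF4-deficient arrays were all below the wildtype arrays, with a log2 difference of -1.76 for vehicle (adjusted p = 0.00876) and -2.08 for arsenite (adjusted p = 0.000718), with the part of the transcript that the probe set reads not known here. Adjusted p-values come from limma with Benjamini-Hochberg correction across 22180 genes, and a gene is called at 0.05. Arrays correlated at 0.982 to 0.994 over genes. Replicate 2 of ATF4-deficient arsenite was far from the rest, with a score of 29.4 on principal component 1 where the other 9 arrays had -18.2 to 8.7. Neuron markers averaged 10.1 to 10.4 on the arrays and microglia markers 6.80 to 6.99, near the level under which 90% of 1390 olfactory and vomeronasal receptor genes lay (6.64). Each of the 28 genes was above that level in every group, the lowest group mean being 7.37 for Srebf1.

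Most sterol genes gave lower values with arsenite in both genotypes, by modest amounts, and no single gene passed the test within 1 genotype. In wildtype neurons 19 of 21 sterol genes were below 0 with a median of -0.26, where all genes had a median of -0.02 and 55.1% lay below 0. In ATF4-deficient neurons 19 of 21 were again below 0 with a median of -0.30, against -0.01 and 52.8% for all genes. These comparisons share no array, and 18 of the 21 sterol genes (85.7%) were below 0 in both, against 33.1% of all genes. This count was not repeated with arrays left out, and it falls without wildtype vehicle replicate 2. The sterol genes moved together by array. Wildtype vehicle replicate 2 was the higher of its group for 18 of 21, and ATF4-deficient vehicle replicate 1 for 17 of 21. The 21 genes are thus not separate observations, and they were listed with earlier results of these data known. The wildtype arsenite means of Cyp51, Hsd17b7, Lss, Dhcr7 and Ebp lay above wildtype vehicle replicate 1 (10.32 against 10.11 for Cyp51). The fatty acid genes had 5 of 7 below 0 in wildtype (median -0.26) and 4 of 7 in ATF4-deficient neurons (median -0.03); the difference between the arms was not tested. Wildtype vehicle replicates set the wildtype medians: without replicate 2 they were -0.07 for the sterol and -0.06 for the fatty acid arm, and without replicate 1 both were -0.46. Without wildtype arsenite replicate 1 the sterol median was -0.12, and the fatty acid median was -0.16 without replicate 3. In ATF4-deficient neurons the sterol median was -0.18 without vehicle replicate 1, while the fatty acid median ran from 0.09 without vehicle replicate 1 to -0.20 without vehicle replicate 2.

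**Figure D1:**
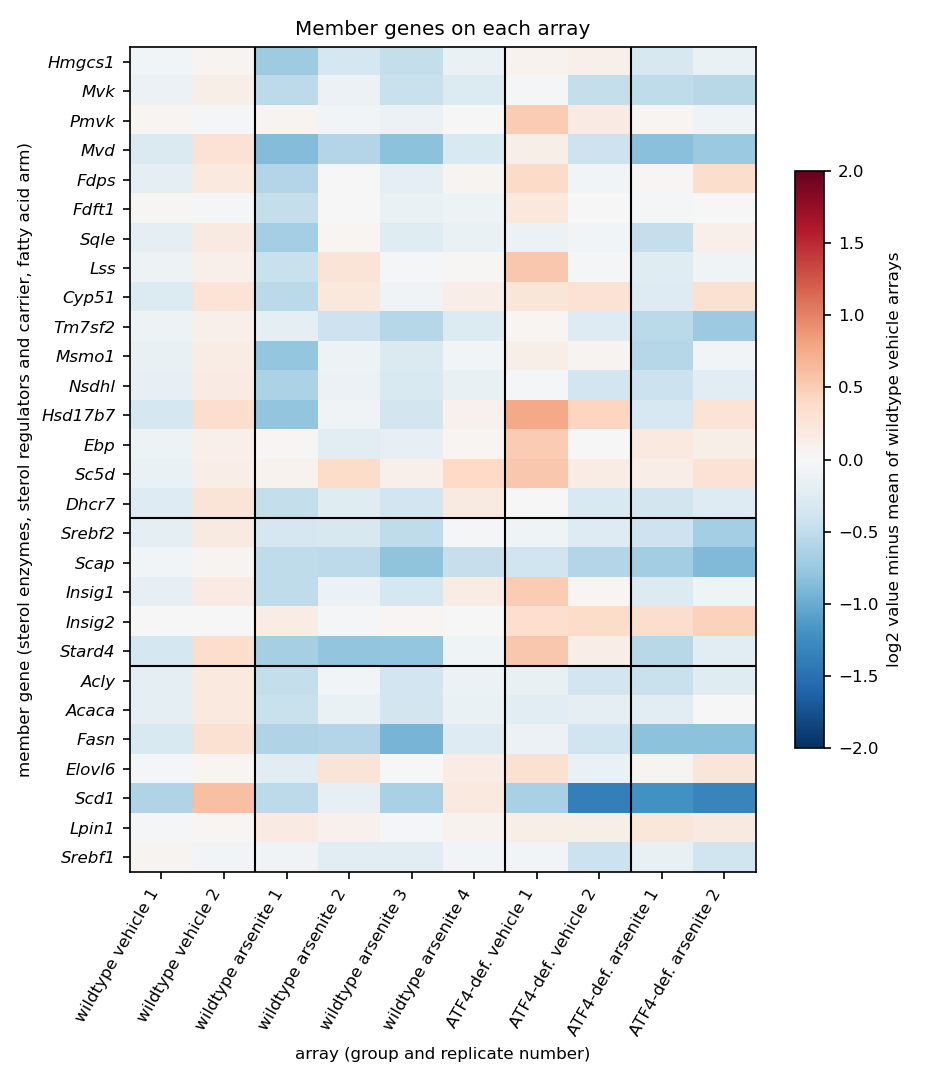
Heat map of the 28 measured genes (rows, by role) on the 10 arrays (columns, by group), coloured by log2 level minus the mean of the 2 wildtype vehicle arrays. Sterol genes are mostly below that mean with arsenite in both genotypes, and Scd1 is low on all 4 ATF4-deficient arrays.

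By the test within each genotype, 0 of 28 genes were called for arsenite in wildtype neurons, where 0.482% of all genes were called, and 0 of 28 in ATF4-deficient neurons, where 1.15% were. At an unadjusted p of 0.05, 7 of 28 passed in wildtype, each of them lower (10.9% of all genes passed, 6.7% lower), and 6 of 28 in ATF4-deficient neurons, again each lower (12% and 5.39%). The 2 genotypes were then averaged with equal weight, a comparison added after the others had been seen. For arsenite so averaged, 3 of 28 genes passed, all lower and all of the sterol arm: Scap, Tm7sf2 and Mvd. The background was 3.07% of all genes called and 1.42% called lower. At an unadjusted p of 0.05, 12 of 28 passed, each lower, against 16.1% of all genes and 8.48% lower. The count was 0 without wildtype vehicle replicate 2, ATF4-deficient vehicle replicate 1 or ATF4-deficient arsenite replicate 2, 1 without wildtype vehicle replicate 1 (Fasn) and without wildtype arsenite replicate 2 or 3 (Scap), and 6 without wildtype arsenite replicate 4.

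Among the regulators, the SREBP escort Scap had the smallest p for arsenite in wildtype and for arsenite averaged over genotypes. Scap read 9.62 and 9.73 in wildtype vehicle, 9.16, 9.15, 8.87 and 9.21 in wildtype arsenite, and in ATF4-deficient neurons 9.28 and 9.09 with vehicle and 8.99 and 8.78 with arsenite. Arsenite arrays were below vehicle arrays in each genotype with no overlap, and the ATF4-deficient vehicle arrays lay among or near the wildtype arsenite ones. Its arsenite difference was -0.58 (SE 0.12, adjusted p = 0.0619) in wildtype and -0.30 (SE 0.13, adjusted p = 0.404) in ATF4-deficient neurons. Averaged over genotypes Scap fell by 0.44 (SE 0.09, 95% interval -0.63 to -0.25, adjusted p = 0.0237), or 1.36-fold. That call was lost without either wildtype vehicle replicate, without ATF4-deficient vehicle replicate 1 and without ATF4-deficient arsenite replicate 2, with the largest adjusted p at 0.11. A second, dim probe set of Scap (6.83 to 7.00 on all arrays) differed by -0.07 and -0.03, and with the mean of both probe sets the averaged difference was -0.25 (adjusted p = 0.0856).

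Srebf2, which encodes the SREBP that serves the sterol enzymes, read 10.22 and 10.57, then 10.05, 10.06, 9.88 and 10.37 with arsenite in wildtype, and 10.31 and 10.13, then 9.98 and 9.72, in ATF4-deficient neurons. Only wildtype arsenite replicate 4 overlapped the vehicle arrays of its genotype. The difference averaged over genotypes was -0.33 (SE 0.11, adjusted p = 0.156). Stard4, a cytosolic sterol carrier and SREBP target, read 7.77 and 8.49, then 7.46, 7.34, 7.35 and 8.04, in wildtype, and 8.67 and 8.26, then 7.57 and 7.90, in ATF4-deficient neurons. Its averaged difference of -0.66 was the largest of the 28 in size and did not pass (SE 0.18, adjusted p = 0.0781). The wildtype groups overlapped through arsenite replicate 4, while the ATF4-deficient groups did not.

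The INSIG genes, which encode the anchors of SCAP, differed from each other in pattern. Insig1, itself an SREBP target, had an averaged arsenite difference of -0.33 (SE 0.14, adjusted p = 0.283), in the direction of most sterol enzymes. Insig2 read 7.61 and 7.59 in wildtype vehicle, 7.74, 7.56, 7.63 and 7.58 in wildtype arsenite, and in ATF4-deficient neurons 7.93 and 7.96 with vehicle and 7.95 and 8.05 with arsenite. All 4 ATF4-deficient arrays were above all 6 wildtype arrays, and arsenite moved it by 0.03 and 0.06. ATF4-deficient minus wildtype was 0.35 with vehicle (SE 0.10, adjusted p = 0.174), and with arsenite 0.37 (SE 0.08, adjusted p = 0.116). Averaged over treatments Insig2 rose by 0.36 in ATF4-deficient neurons (SE 0.06, 95% interval 0.22 to 0.50, adjusted p = 0.0208), or 1.28-fold, the 1 call among 28 in that comparison (1.82% of all genes called, 0.582% called higher). It was lost without either wildtype vehicle replicate, without ATF4-deficient vehicle replicate 2 and without ATF4-deficient arsenite replicate 2 (largest adjusted p 0.105), and with the replicate number as a block (adjusted p = 0.0525). That count was also 2 without wildtype arsenite replicate 3, when Scap joined, and without wildtype vehicle replicate 1 the 1 call was Scd1.

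**Figure D2:**
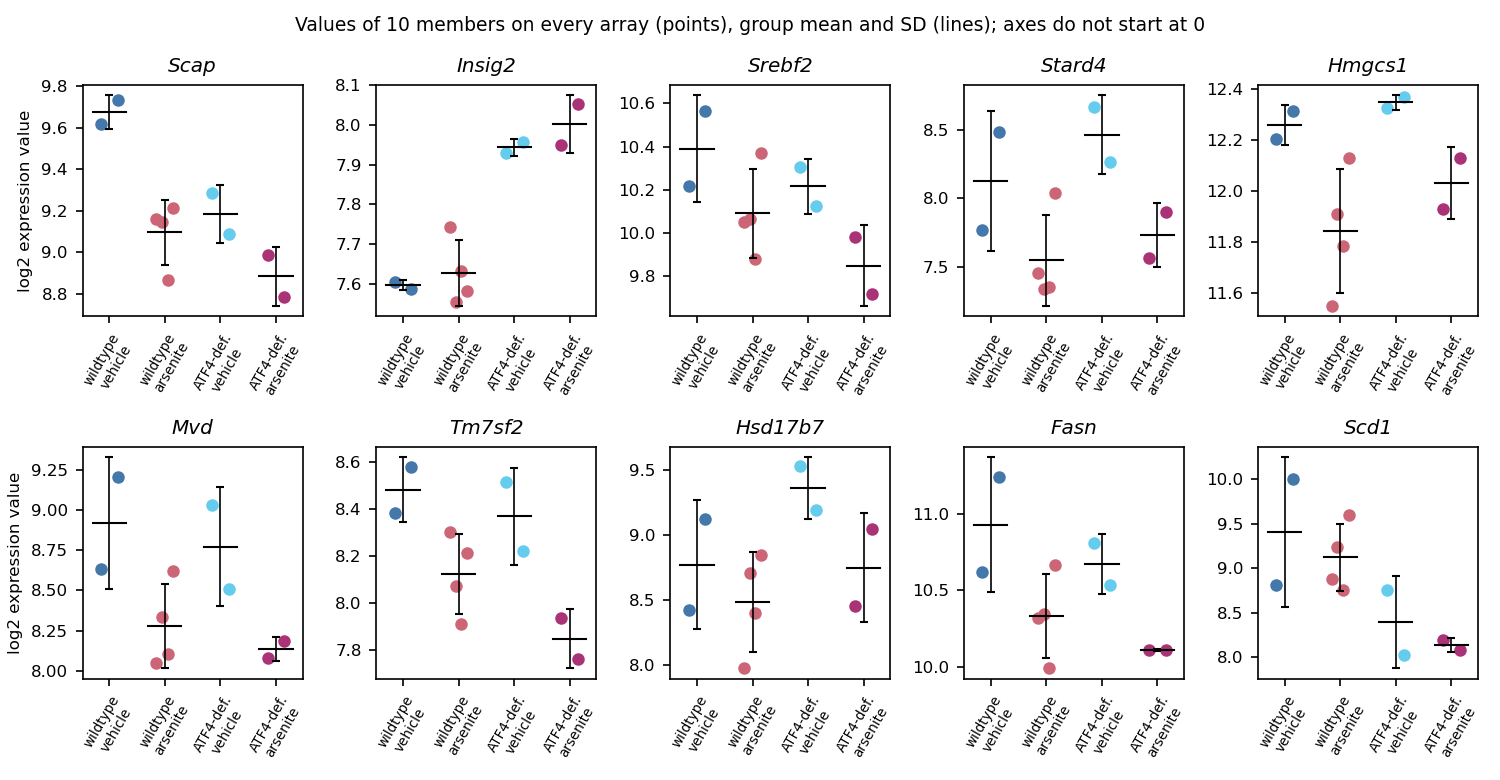
Log2 level of 10 genes on each array (points), with the mean and SD of each group (lines); groups are wildtype and ATF4-deficient, vehicle and arsenite (ARS), with 2, 4, 2 and 2 arrays. Insig2 separates by genotype, Scap, Mvd and Tm7sf2 by treatment within each genotype, and Scd1 is spread over 8.81 to 9.999 in wildtype vehicle.

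Of the mevalonate enzymes, Mvd, which makes isopentenyl diphosphate from mevalonate diphosphate, had the largest differences. Mvd read 8.63 and 9.21 in wildtype vehicle, 8.05, 8.33, 8.10 and 8.62 in wildtype arsenite, and in ATF4-deficient neurons 9.03 and 8.51 with vehicle and 8.08 and 8.19 with arsenite. The groups did not overlap in either genotype, though wildtype arsenite replicate 4 lay just under wildtype vehicle replicate 1. The difference was -0.64 in each genotype (SE 0.20, adjusted p = 0.236 in wildtype and SE 0.23, adjusted p = 0.281 in ATF4-deficient neurons). These values moved with the vehicle arrays, to -0.35 and -0.93 in wildtype without vehicle replicate 2 or 1, and to -0.38 and -0.90 in ATF4-deficient neurons without vehicle replicate 1 or 2. Averaged, Mvd fell by 0.64 (SE 0.15, 95% interval -0.98 to -0.31, adjusted p = 0.0492), or 1.56-fold. The call sat at the threshold: it was kept in 2 of 10 fits with an array left out (ATF4-deficient vehicle replicate 2, or wildtype arsenite replicate 4), with adjusted p from 0.0307 to 0.205. It was also lost with array weights (0.06), equal array medians (0.054), the mean of probe sets (0.0501) and the replicate block (0.0537). That block in effect leaves wildtype arsenite replicates 3 and 4 out of the comparison.

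Hmgcs1, the cytosolic synthase that feeds the pathway with HMG-CoA, was the brightest of the 28. It read 12.20 and 12.31, then 11.55, 11.91, 11.78 and 12.13, in wildtype, and 12.33 and 12.37, then 11.93 and 12.13, in ATF4-deficient neurons. Arsenite arrays were below vehicle arrays in each genotype without overlap. The averaged difference was -0.37 (SE 0.11, adjusted p = 0.0958). Pmvk, the phosphomevalonate kinase, read 9.34 and 9.27, then 9.36, 9.25, 9.19 and 9.30, in wildtype, where the groups overlapped. In ATF4-deficient neurons it read 9.81 and 9.47 with vehicle and 9.34 and 9.22 with arsenite, a difference of -0.36 (SE 0.12, adjusted p = 0.245), which was -0.18 without vehicle replicate 1 and -0.53 without vehicle replicate 2. Mvk, the mevalonate kinase, had an averaged difference of -0.32 (adjusted p = 0.175). Fdps, the farnesyl diphosphate synthase, read 10.01 and 10.41, then 9.63, 10.20, 10.03 and 10.26, in wildtype, and 10.58 and 10.16, then 10.23 and 10.56, in ATF4-deficient neurons. Its estimates were -0.18 and 0.02, and it was the only sterol enzyme of the 16 above 0 in the latter.

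Past squalene, Tm7sf2, a sterol reductase of the endoplasmic reticulum, passed in the averaged comparison. Tm7sf2 read 8.39 and 8.58 in wildtype vehicle, 8.30, 8.07, 7.91 and 8.21 in wildtype arsenite, and in ATF4-deficient neurons 8.52 and 8.22 with vehicle and 7.94 and 7.76 with arsenite. Neither genotype's groups overlapped. The difference was -0.36 in wildtype (SE 0.13, adjusted p = 0.306) and -0.52 in ATF4-deficient neurons (SE 0.15, adjusted p = 0.154), and averaged it fell by 0.44 (SE 0.10, adjusted p = 0.0371). That call was kept in 4 of 10 fits with an array left out: without ATF4-deficient arsenite replicate 1, ATF4-deficient vehicle replicate 2, or wildtype arsenite replicate 1 or 4. Its largest adjusted p without an array was 0.163, and it was 0.053 with the replicate block.

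Hsd17b7, a ketosteroid reductase of the same stretch, read 8.42 and 9.12, then 7.98, 8.71, 8.40 and 8.85, in wildtype, and 9.53 and 9.19, then 8.45 and 9.04, in ATF4-deficient neurons. Its ATF4-deficient vehicle arrays were the highest of the 10, and the wildtype groups overlapped. The averaged arsenite difference was -0.45 (SE 0.20, adjusted p = 0.295). Msmo1, a methylsterol oxidase, had -0.30 in wildtype and -0.41 in ATF4-deficient neurons. Lss, the lanosterol synthase, had -0.05 and -0.41, and Cyp51, the lanosterol demethylase, -0.07 and -0.25. The remaining enzymes Fdft1 and Sqle (squalene synthesis and epoxidation), Nsdhl, Ebp and Dhcr7 were between -0.30 and -0.08 in wildtype and between -0.15 and -0.10 in ATF4-deficient neurons. Sc5d, the lathosterol desaturase, stood apart from the other enzymes in wildtype, reading 9.90 and 10.17 with vehicle and 10.10, 10.40, 10.14 and 10.42 with arsenite, a difference of 0.23 (adjusted p = 0.609). In ATF4-deficient neurons Sc5d read 10.58 and 10.17, then 10.17 and 10.32.

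**Figure D3:**
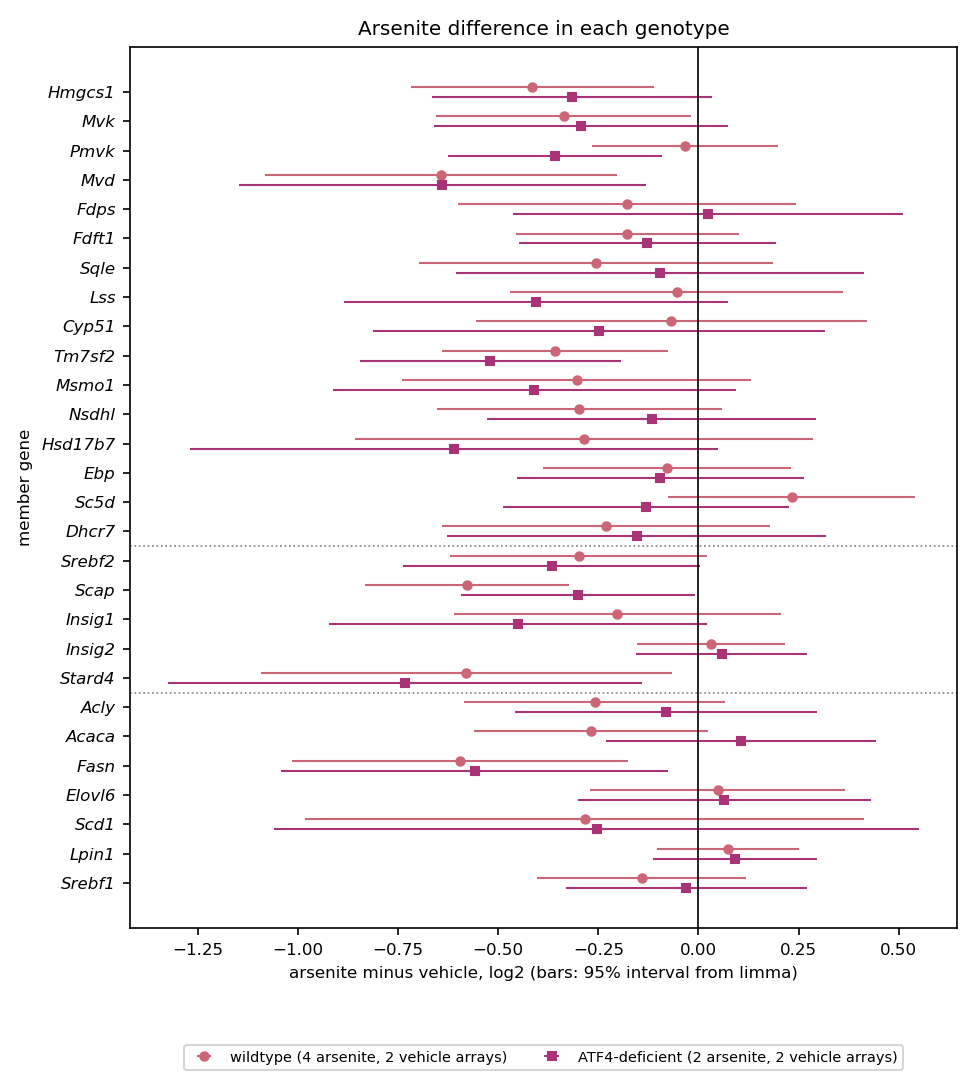
Arsenite minus vehicle (log2) for the 28 genes in each genotype, with 95% intervals from the limma fit over 10 arrays (2 and 4 arrays in wildtype, 2 and 2 in ATF4-deficient neurons). The estimates lie mostly left of 0 among sterol genes, and the intervals of the 2 genotypes overlap.

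In the fatty acid arm, Fasn, the fatty acid synthase, had the largest arsenite estimates. Fasn read 10.62 and 11.24, then 10.32, 10.35, 9.99 and 10.67, in wildtype, and 10.81 and 10.53, then 10.11 and 10.11, in ATF4-deficient neurons. The wildtype groups overlapped through arsenite replicate 4 and the ATF4-deficient groups did not. The wildtype difference was -0.60, with -0.28 without vehicle replicate 2 and -0.91 without vehicle replicate 1. The averaged difference was -0.58 (SE 0.15, adjusted p = 0.0598), and it passed when dim genes were left out of the adjustment (adjusted p = 0.0357). Acaca, the acetyl-CoA carboxylase that supplies Fasn, read 9.52 and 9.91, then 9.27, 9.58, 9.35 and 9.59, in wildtype, and 9.49 and 9.52, then 9.50 and 9.72, in ATF4-deficient neurons. Its estimates were -0.27 and 0.11, and neither passed. Acly, which makes cytosolic acetyl-CoA from citrate, had -0.26 and -0.08, with arrays at 10.38 and 10.79, 10.11, 10.53, 10.20 and 10.46, 10.44 and 10.21, and 10.14 and 10.34 in group order. Both wildtype estimates moved with the vehicle arrays: without replicate 2 they were -0.07 for Acaca and -0.06 for Acly, and without replicate 1 they were -0.47 and -0.46. Elovl6, a fatty acid elongase, had 0.05 and 0.06.

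Scd1, the desaturase that makes monounsaturated fatty acids, had the largest averaged genotype difference of the 28. It read 8.81 and 9.999 in wildtype vehicle, 8.88, 9.24, 8.76 and 9.60 in wildtype arsenite, and in ATF4-deficient neurons 8.76 and 8.03 with vehicle and 8.20 and 8.09 with arsenite. The ATF4-deficient arrays were below the wildtype arrays of the same treatment, with a narrow gap between the closest vehicle arrays (8.76 and 8.81). ATF4-deficient minus wildtype was -1.01 with vehicle (SE 0.37, adjusted p = 0.327), -0.98 with arsenite (SE 0.32, adjusted p = 0.266) and -0.99 averaged (SE 0.24, adjusted p = 0.0697). The vehicle value rested on the 2 wildtype arrays, and was -0.42 (log2) without replicate 2 and -1.60 without replicate 1. The averaged difference passed when dim genes were left out of the adjustment (adjusted p = 0.0424). Lpin1, a phosphatidate phosphatase, varied little, from 8.62 to 8.68 in wildtype vehicle, from 8.63 to 8.81 in wildtype arsenite, at 8.76 on both ATF4-deficient vehicle arrays, and at 8.88 and 8.84 in ATF4-deficient arsenite. Srebf1 was the dimmest gene, at 7.69 and 7.59, then 7.57, 7.42, 7.42 and 7.59, in wildtype, and 7.59 and 7.22, then 7.50 and 7.25, in ATF4-deficient neurons. Which of the SREBP forms made from this gene its probe set reads is not known here.

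Between genotypes 0 of 28 genes were called under vehicle (0.433% of all genes called) and 0 under arsenite (0.343%). At an unadjusted p of 0.05, 4 passed under vehicle (Scap and Scd1 lower, Insig2 and Pmvk higher; 10.9% of all genes) and 2 under arsenite (Scd1 lower, Insig2 higher; 12.1%). Under vehicle the sterol arm had a median of 0.11 with 13 of 21 above 0, and the fatty acid arm a median of -0.24 with 5 of 7 below 0. The vehicle medians moved with single arrays: the sterol one was -0.01 without ATF4-deficient vehicle replicate 1, -0.02 without wildtype vehicle replicate 1, 0.22 without ATF4-deficient vehicle replicate 2 and 0.24 without wildtype vehicle replicate 2. The fatty acid one was -0.38 and -0.41 without the first 2 of these and -0.12 and -0.01 without the others. Under arsenite the medians were 0.01 and -0.08, with Fdps at 0.37 (adjusted p = 0.486) and Tm7sf2 at -0.28 (adjusted p = 0.425) the furthest sterol genes after Insig2 by p.

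The response to arsenite was not shown to differ by genotype for any of the 28 genes. The interaction, the ATF4-deficient minus the wildtype response, called 0 of 28 and 0% of all genes, and 0 of 28 passed an unadjusted p of 0.05 against 6% of all genes. Sterol estimates ran from -0.36 (Sc5d) to 0.28 (Scap), with a median of -0.02. The intervals were wide: that of Scap, the difference between -0.30 and -0.58, ran from -0.11 to 0.67, and that of Stard4, at -0.15, from -0.94 to 0.63.

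Per array, the mean of the 21 sterol genes minus its wildtype vehicle mean was -0.15 and 0.15 in wildtype vehicle, -0.45, -0.15, -0.33 and -0.04 in wildtype arsenite, and in ATF4-deficient neurons 0.23 and -0.05 with vehicle and -0.29 and -0.13 with arsenite. Wildtype arsenite replicate 4 lay above wildtype vehicle replicate 1 and replicate 2 was level with it, so the wildtype groups overlap on this mean, while the ATF4-deficient groups do not. The sterol genes shared their replicate spread. Wildtype arsenite replicate 1 was the lowest of its group for 14 of 21 (26.5% of all genes) and replicate 4 the highest for 12 of 21 (28% of all genes). Wildtype vehicle replicate 2 was the higher for 18 of 21 (43.7% of all genes), and ATF4-deficient vehicle replicate 1 for 17 of 21 (54.8%). The sterol mean minus the fatty acid mean, on the same relative scale, was 0.34 on both ATF4-deficient vehicle arrays. It was 0.07 and 0.20 on the ATF4-deficient arsenite arrays, and between -0.14 and 0.04 on the 6 wildtype arrays. The fatty acid mean covers 7 genes, and Scd1 had the largest of their differences under vehicle (-1.01, ATF4-deficient minus wildtype). This gap between the means was not read without Scd1.

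**Figure D4:**
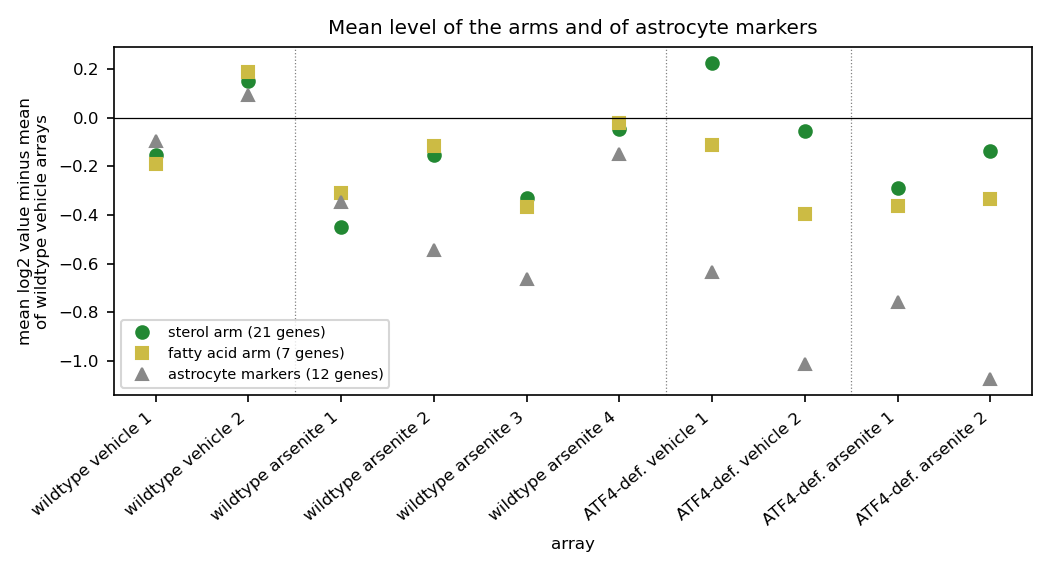
Mean log2 level of the 21 sterol genes, the 7 fatty acid genes and 12 astrocyte markers on each array, each relative to its own mean over the 2 wildtype vehicle arrays. The sterol mean ranges from -0.45 to 0.23, and the astrocyte mean is below 0 on every arsenite and every ATF4-deficient array.

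Markers of astrocytes and of the oligodendrocyte lineage gave mostly lower values in the same comparisons. Of the astrocyte markers, all 12 were measured. Their mean level was 8.56 to 8.75 in wildtype vehicle, 7.99 to 8.50 in wildtype arsenite, 7.64 to 8.02 in ATF4-deficient vehicle and 7.58 to 7.90 in ATF4-deficient arsenite. With arsenite in wildtype 12 of 12 were below 0 (median -0.40), and in ATF4-deficient neurons 8 of 12 (median -0.09). Between genotypes under vehicle the median was -0.82 with 10 of 12 below 0. Averaged, 1 of 12 was called lower for arsenite (1.42% of all genes called lower) and 6 of 12 for genotype (1.24%), and 0 were called higher. Markers of the oligodendrocyte lineage (9 measured) had mean levels of 7.35 to 7.46, 7.08 to 7.28, 7.06 to 7.09 and 6.84 to 6.98 in the same group order. With arsenite 7 of 9 were below 0 in wildtype (1 called lower, against 0.482% of all genes called). In ATF4-deficient neurons 8 of 9 were below 0 (0 called, against 1.15%). Averaged, 1 of 9 was called lower for arsenite (1.42% of all genes called lower) and 3 of 9 for genotype (1.24%). Progenitor and cycling markers were below 0 for genotype in 5 of 5 under each treatment (1 called lower when averaged, against 1.24% of all genes). Neuron markers (10 measured) had medians of -0.16 and -0.09 with arsenite. Averaged, 1 of 10 was called higher for arsenite (3.07% of all genes called) and 2 of 10 for genotype, 1 in each direction (1.82%). Microglia markers were below 0 with arsenite in 3 of 7 in wildtype and 6 of 7 in ATF4-deficient neurons. For genotype they were below 0 in 2 of 7 under vehicle and 4 of 7 under arsenite, and 0 were called. Vascular and fibroblast markers were below 0 with arsenite in 1 of 5 and 3 of 5. In these bulk cultures fewer cells of a type and less RNA per cell cannot be told apart, and the part of astrocytes, oligodendrocyte lineage cells and progenitors in the values of the sterol and fatty acid genes was not tested.

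Counts of genes whose groups did not overlap between arsenite and vehicle were read against all genes. In wildtype, 4 of 28 were lower on every arsenite array (Hmgcs1, Mvd, Tm7sf2 and Scap; 12.7% of all genes) and 0 were higher (7.86%). In ATF4-deficient neurons, 14 of 28 were lower (13 sterol genes and Fasn; 20.7% of all genes) and 1, Lpin1, was higher (18.1%). The wildtype share was near the background. Between genotypes under vehicle 3 of 28 were lower (21.4% of all genes) and 6 higher (21.2%), and under arsenite 1 was lower (7.95%) and 3 higher (10.6%), shares near or below the background.

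Genes next to the pathway were read from further lists. Of 20 measured genes of sterol handling (uptake, efflux, storage and turnover) and 18 further lipogenic genes, 0 were called with arsenite in either genotype or averaged. At an unadjusted p of 0.05 in wildtype, 3 of the 20 passed (2 lower, 1 higher) and 8 of the 18 (7 lower, 1 higher), against 10.9% of all genes and 6.7% lower. In ATF4-deficient neurons these were 1 (higher) and 4 (2 lower, 2 higher), against 12% of all genes and 5.39% lower. For genotype averaged over treatments 2 of 20 and 1 of 18 were called, all lower in ATF4-deficient neurons, against 1.82% of all genes called and 1.24% called lower. Abca1, the cholesterol efflux transporter, read 8.70 and 8.99, then 8.80, 8.16, 8.09 and 8.98, in wildtype, and 7.77 and 7.43, then 7.98 and 7.60, in ATF4-deficient neurons. It fell by 0.98 (SE 0.18, adjusted p = 0.024), and all ATF4-deficient arrays were below all wildtype ones. Vldlr, a lipoprotein and reelin receptor, read 9.43 and 9.48, then 9.64, 9.99, 9.80 and 9.86, in wildtype, and 9.08 and 9.17, then 9.36 and 9.37, in ATF4-deficient neurons. It fell by 0.39 (adjusted p = 0.0264). Mid1ip1, a partner of acetyl-CoA carboxylase, read 7.64 and 7.78, then 7.79, 7.83, 7.69 and 7.78, in wildtype, and 7.46 and 7.46, then 7.42 and 7.18, in ATF4-deficient neurons. It fell by 0.36 (adjusted p = 0.0295), and for both genes all ATF4-deficient arrays were below all wildtype ones. The Abca1 call was lost without either wildtype vehicle replicate, ATF4-deficient vehicle replicate 2 or ATF4-deficient arsenite replicate 2. The Vldlr call was kept in 3 of 10 such fits, those without wildtype arsenite replicate 1, 2 or 3, and that of Mid1ip1 in 2, those without wildtype arsenite replicate 3 or ATF4-deficient arsenite replicate 1. With the mean of its 3 probe sets Mid1ip1 differed by -0.11 (adjusted p = 0.49), and with the replicate block its adjusted p was 0.0522.

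Promoters of the genes were searched for the letters of known elements, from 250 bases before to 50 bases after the RefSeq gene start (build GRCm38.p6); 25 of the 31 listed genes had an entry. A gene with several starts has a window at each, and counts once if any of them holds the letters; the listed genes had 1.32 windows on average and all genes 1.22. The sterol regulatory element TCACNCCAC was in 1 of 25 (Hmgcs1; 4%) and in 1.44% of 27025 genes, and its shorter form TCACNCCA, which the longer contains, in 3 of 25 (Hmgcs1, Msmo1 and Srebf2; 12%) and in 4.97%. The CCAAT box, where NF-Y binds beside SREBP in many sterol promoters, was in 20 of 25 (80%) and in 41.1% of all genes. The core letters of the element bound by ATF4 with C/EBP factors, TGATGNAA, were in 2 of 25 (Idi1 and Insig2; 8%) and in 4.51%. Both strands were read. Scap, called for arsenite averaged over genotypes, had 2 windows and none of these letters in them. Stretches are shown for 5 genes described above that hold a match, of which Hmgcs1 and Srebf2 were not called. The letters of the element named on each line are in capitals (ATTGG is CCAAT on the other strand), each stretch 5′ to 3′ on the gene's strand. Other matches are not marked: the Srebf2 stretch also holds a CCAAT box at -135. Mvd has another CCAAT box at -27, which its stretch does not show whole.
Hmgcs1, sterol regulatory element, chr13:119690184-119690252, plus strand: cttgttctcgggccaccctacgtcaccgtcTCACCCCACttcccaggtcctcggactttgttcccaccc
Srebf2, shorter sterol regulatory element, chr15:82147077-82147144, plus strand: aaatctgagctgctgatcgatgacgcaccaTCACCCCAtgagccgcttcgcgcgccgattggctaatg
Mvd, CCAAT box, chr8:122443448-122443512, minus strand: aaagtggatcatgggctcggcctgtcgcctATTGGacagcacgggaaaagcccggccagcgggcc
Tm7sf2, CCAAT box, chr19:6067863-6067927, minus strand: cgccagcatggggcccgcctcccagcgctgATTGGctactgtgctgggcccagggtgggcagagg
Insig2, TGATGNAA on the other strand, outermost start, chr1:121332724-121332791, minus strand: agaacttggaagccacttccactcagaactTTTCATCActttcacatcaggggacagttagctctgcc
Insig2, TGATGNAA, second start, chr1:121328165-121328232, minus strand: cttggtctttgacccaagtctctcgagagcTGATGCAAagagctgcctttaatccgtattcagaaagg
The capitals begin at position -137 relative to the gene start in Hmgcs1, -162 in Srebf2, -60 in Mvd, -47 in Tm7sf2, and -172 and -178 in Insig2. Insig2 has 3 start windows, and its second match lies upstream of an inner start and so within the gene as read from the outermost one. Each stretch shown lies before the start it is counted from. Binding was not measured, so a match describes letters and no match says only that the letters are not in this window.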

How the data were processed

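The authors deposited log2 expression values of 10 Affymetrix mouse arrays, normalized by RMA in Partek 6.6 per the submitters' processing notes and the series design text; RMA makes array distributions alike, so a change shared by most transcripts is removed. Array medians were 7.005 to 7.092. Scanner files were not used here, and the genome build of the array design is unknown here. Of 41345 probe sets, 23521 name 1 gene symbol; the brightest per gene gave 22180 genes, with no filter on dim ones. The number of arrays limits the precision.

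A limma model (3.58.1, R 4.3.3) with a mean for each of the 4 groups gave 5 contrasts and, added after those were seen, arsenite and genotype each averaged over the other factor, with Benjamini-Hochberg adjustment over 22180 genes (threshold 0.05, 6 residual degrees of freedom, prior degrees of freedom 5.08). The fit was tested on data simulated with independent noise, each gene's spread drawn from the limma prior over all genes (SD 0.124). For arsenite in wildtype, it called 36% of 50 genes changed by 0.5 (log2) and 98% of 50 changed by 1. Mvd and Scd1 had SEs of 0.20 and 0.32 in that contrast, so these shares need not hold for them. Changes were not simulated in the other contrasts. Values on every array were given for genes called, and for the 3 of smallest p per arm in each of the 5 contrasts; Stard4, Hsd17b7, Srebf2 and Abca1 were added after their values were seen or as calls of further lists. The members and lists were chosen with earlier results of these data known. Alternatives were array weights, equal array medians, a filter on dim genes, the mean of probe sets, only the groups compared, a replicate block and each array left out. The block gives wildtype arsenite replicates 3 and 4, numbers found in no other group, terms of their own. Its contrasts therefore use only replicates 1 and 2 of wildtype arsenite. Promoter sequences are RefSeq's (GRCm38.p6).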

Additional observations from a re-analysis of the deposited data

How the results depend on the processing

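Counts of the 28 genes called were 0 in the 5 contrasts within a genotype, a treatment or the interaction under each alternative except that arsenite in wildtype gave 1, Scap, with array weights and with the filter on dim genes. For arsenite averaged over genotypes (3 called) the filter on dim genes gave 5, the mean of probe sets 1, and leaving out an array 0 to 6. For genotype averaged over treatments (1 called) the filter gave 3, the replicate block 0, and leaving out an array 0 to 2. Without an array, the sterol median ran from -0.456 to -0.0728 for arsenite in wildtype and from -0.2425 to 0.0945 for the interaction. The fatty acid median ran from -0.460 to -0.0582 for arsenite in wildtype, from -0.406 to -0.0124 for genotype under vehicle and from -0.0747 to 0.3471 for the interaction. Signs were compared for the 3 genes of smallest p per arm in each contrast, and turned for 3 of these genes. Acaca turned in ATF4-deficient neurons (-0.0052 without arsenite replicate 2, up to 0.2187 without replicate 1). The interaction turned for Srebf1 (-0.0131 without ATF4-deficient arsenite replicate 1, -0.0747 without ATF4-deficient vehicle replicate 2, up to 0.2959). It also turned for Acly (-0.0235 without wildtype vehicle replicate 2, up to 0.3787). Other genes were not followed in this way, and some of them turn too. For Cyp51, Scd1 and Hsd17b7 the wildtype arsenite means (10.32, 9.12 and 8.48) lay above wildtype vehicle replicate 1 (10.11, 8.81 and 8.42). Their wildtype signs therefore turn without vehicle replicate 2. A lone remaining array was assumed to vary like the other groups, and the cause was not tested.

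Same-numbered samples deviated together with correlations of -0.056 to 0.403. The highest was between ATF4-deficient vehicle and arsenite, where groups of 2 arrays give the same value for both numbers. Between wildtype and ATF4-deficient arsenite it was 0.225 and 0.386. The labels state no pairing, so the main fit took none, and whether same-numbered samples share a preparation was not tested. With the replicate block, arsenite averaged over genotypes called 2 genes, Hmgcs1 and Scap, and each of the other contrasts 0. The block in effect drops wildtype arsenite replicates 3 and 4, as no other group has these numbers. Shared numbering and the loss of these arrays cannot be told apart in that fit. Over all genes, calls for arsenite in wildtype (107) were 0 to 186 under the alternatives, in ATF4-deficient neurons (256) 0 to 336, for genotype under vehicle (96) 0 to 228 and under arsenite (76) 1 to 94; the averaged comparisons gave 242 to 892 (682) and 58 to 516 (404). Fitting only the groups compared was not run for the interaction and the averaged comparisons.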
